A study of Mus musculus with 12 samples.

Results

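The colony-stimulating factors are secreted proteins that keep myeloid cells alive and drive their growth and maturation. The genes described here are Csf1, Csf2, Csf3 and Il34, together with Csf1r, the receptor that Csf1 and Il34 share. They were taken by symbol from the read count table, which gave 5 genes of 55487, and all 5 passed the filter on low counts and were among the 15734 genes tested. The libraries come from MPC5, an immortalized mouse podocyte cell line (podocytes are the epithelial cells around the glomerular capillaries). SPARCoe cells, labelled with the genotype Sparc overexpression, received a Sparc overexpression plasmid (6 libraries). Vector cells, labelled WT, received the empty plasmid (6 libraries), and both were profiled by mRNA sequencing 24 hours after transfection. SPARC is a collagen-binding matricellular protein, and the series is about podocyte injury by SPARC in mice with Alport syndrome. Whether the 6 libraries of a group are from separate cultures is not in the labels, and a p-value here covers the spread among libraries, possibly technical.

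Csf1 (macrophage colony-stimulating factor) supports the survival and proliferation of monocytes and macrophages, and in the kidney it is made by tubule and other resident cells. Il34 is unrelated to Csf1 in sequence but binds the same receptor, Csf1r, a tyrosine kinase of macrophages, microglia and osteoclast precursors. Csf2 (granulocyte-macrophage colony-stimulating factor) and Csf3 (granulocyte colony-stimulating factor) act through cytokine receptors that signal by JAK kinases and STAT factors, and Csf3 is the main driver of neutrophil production. In many cell types the Csf2 and Csf3 transcripts are short-lived, because AU-rich elements in their 3′ untranslated regions are bound by decay factors such as tristetraprolin.

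Library totals ran from 34927871 to 47380987 counts in SPARCoe and from 33051035 to 47296258 in vector. Sparc itself was 13.5-fold higher in SPARCoe, at 10119.7 ± 260.5 CPM against 751.1 ± 11.2 CPM in vector (CPM, counts relative to the TMM-scaled library size; SD, n = 6 each). Podocyte markers were present in part. Kirrel, Podxl and Synpo stood at 340.4, 96.7 and 46.0 CPM in SPARCoe and at 400.3, 88.5 and 66.7 CPM in vector, and Cd2ap at 313.9 CPM in SPARCoe and 325.6 CPM in vector. Others were absent or nearly so. Nphs1 (nephrin) had 53 counts in SPARCoe and 0 in vector, Ptpro had 6 and 0, and Wt1 had 20 and 37, summed over the 6 libraries of each group. The tubule markers Lrp2 and Pax8 stood at 192.6 and 128.0 CPM in SPARCoe and at 257.9 and 155.8 CPM in vector.

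The AU-rich pentamer ATTTA, the core letters of the decay elements, was searched on the transcript strand of the longest annotated 3′ untranslated region of each gene in GENCODE M21 (GRCm38). The 30-base windows with the most pentamers are shown for the 4 ligands, so that the letters behind the pentamer counts can be read. They are written 5′ to 3′ as DNA letters, with every pentamer in capitals. Pentamers that share a letter run together. The Csf2 window lies at chr11:54247329-54247358 (minus strand), the Csf3 window at chr11:98702984-98703013 (plus strand), the Csf1 window at chr3:107741109-107741138 (minus strand) and the Il34 window at chr8:110741845-110741874 (minus strand).
Csf2: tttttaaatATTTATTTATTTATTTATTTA
Csf3: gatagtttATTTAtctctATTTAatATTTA
Csf1: tttatataaggtcATTTAaatatctATTTA
Il34: tggttcctttttctattaaatggccATTTA

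Csf2 held 9 pentamers in 317 bases of 3′ untranslated region, 5 of them in its window. Csf3 held 6 in 669 bases, 3 of them in its window. Csf1 held 4 in 2111 bases, Csf1r 3 in 1669 bases and Il34 1 in 605 bases. Of 21022 genes with an annotated 3′ untranslated region, 0.271% had a 30-base window with at least 5 pentamers and 2.56% had one with at least 3. By the same count, 18.7% had a window with at least 2 and 65.2% held at least 1 pentamer anywhere. A match is a description of the letters, and binding was not measured.

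Of the 5 genes, 2 rose in SPARCoe (Csf2 and Csf3), 1 fell (Csf1r) and 2 did not pass the test (Csf1 and Il34), by edgeR's quasi-likelihood test with a Benjamini-Hochberg adjusted p under 0.05 over all genes tested. The same rule called 29.1% of all 15734 genes, 14.9% as higher and 14.1% as lower in SPARCoe. The CPM ranges of the 6 SPARCoe and the 6 vector libraries did not overlap for 3 of the 5 genes, against 15.6% of all genes tested. The median log2 fold change was 0.01 for the 5 genes and -0.0033 over all genes tested.

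**Figure D1:**
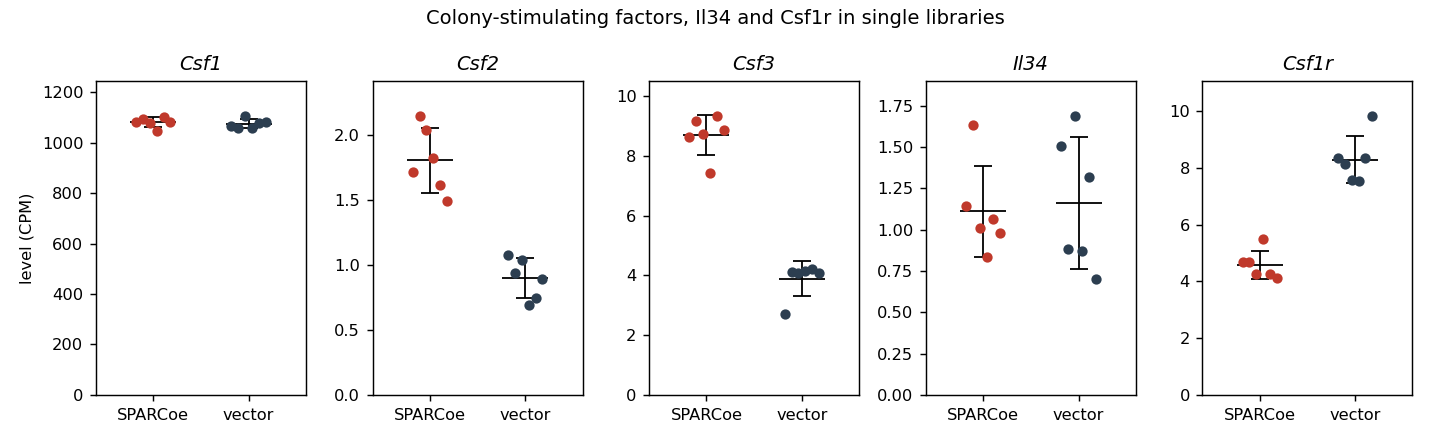
Level of each gene in CPM (vertical axis, starting at 0, a scale of its own for each gene) in the SPARCoe libraries and in the vector libraries; points are single libraries, the bar and whiskers the mean and SD (n = 6). Csf2 and Csf3 were higher in every SPARCoe library than in any vector library, Csf1r was lower in every one, and the points of Csf1 and Il34 overlap.

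Csf1 was by far the most abundant ligand and differed by less than its spread. It ranged from 1047.3 through a median of 1083.5 to 1102.6 CPM in SPARCoe, against 1057.6 through 1072.8 to 1106.0 CPM in vector. The ranges lay on top of each other, and 1 SPARCoe library fell below the lowest vector library. The log2 fold change was 0.01 ± 0.02 (SE, edgeR adjusted p = 0.769), with a 95% interval of 0.982- to 1.03-fold. A two-sided exact permutation test, which ran log2(CPM + 0.1) through all 924 ways to split the 12 libraries 6 against 6, gave p = 0.539. The depth behind Csf1 was large, 273585 counts in SPARCoe and 262153 in vector, so the interval excludes changes of the size seen for Csf2 and Csf3. In the deposited FPKM values (counts scaled to gene length and library total) Csf1 ranked 141 of 30227 genes above 0 in SPARCoe and 147 of 27464 in vector. Csf1 transcripts took 0.108% of all counts in SPARCoe and 0.107% in vector. Csf1 is spliced to secreted and membrane-bound forms, which gene counts do not separate.

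Il34, the second ligand of Csf1r, was scarce and did not pass the test. It ranged from 0.837 through a median of 1.04 to 1.63 CPM in SPARCoe, against 0.703 through 1.10 to 1.69 CPM in vector. Both groups were widely spread, with 34 to 57 counts per SPARCoe library and 29 to 73 per vector library. The log2 fold change was -0.08 ± 0.21 (SE, edgeR adjusted p = 0.845; exact permutation p = 0.900). Its 95% interval, 0.704- to 1.28-fold, does not exclude a moderate change in either direction. Without vector replicate 1 or 3 the estimate was above 0 (log2 fold change 0.012 and 0.066). Gm15894 and Gm15895, antisense genes that overlap Il34, had 46 and 13 counts in SPARCoe and 57 and 2 in vector, beside 277 and 284 for Il34. They share 22 and 75 of its 1959 exon bases. Without a stated strand setting, reads of a gene and its antisense partner cannot be told apart.

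Csf3 rose 2.23-fold. It ranged from 7.43 through a median of 8.81 to 9.34 CPM in SPARCoe, against 2.71 through 4.10 to 4.23 CPM in vector. All 6 SPARCoe libraries were above every vector library. The level was 8.70 ± 0.68 CPM in SPARCoe and 3.90 ± 0.58 CPM in vector (SD, n = 6 each). The log2 fold change was 1.16 ± 0.09 (SE, edgeR adjusted p = 1.38e-13), and the 95% interval ran from 1.95- to 2.55-fold. The exact permutation p was 0.00216, the smallest that 6 against 6 libraries allow. Vector replicate 1 was the lowest library by a wide margin, and without it the log2 fold change was 1.08. The gene lies on chromosome 11 from 98701263 to 98703629 on the plus strand, and GENCODE M21 places no other gene over it.

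Csf2 rose 2.00-fold, at a lower level. It ranged from 1.49 through a median of 1.77 to 2.15 CPM in SPARCoe, against 0.693 through 0.915 to 1.07 CPM in vector. The groups did not overlap, although each library held few reads of it, 61 to 97 counts in SPARCoe and 23 to 45 in vector. The log2 fold change was 1.00 ± 0.18 (SE, edgeR adjusted p = 1.32e-05; exact permutation p = 0.00216), with a 95% interval of 1.56- to 2.56-fold. On the log2(FPKM + 1) scale, which understates low genes, it was 0.62 (limma adjusted p = 3.86e-05, with a minimum mean of 0.1 FPKM). Csf2 lies on chromosome 11 from 54247271 to 54249667 (minus strand). The antisense gene Gm12223, which overlaps it, had 2 counts in SPARCoe and 0 in vector.

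The rises of Csf2 and Csf3 were of like size. The ratio of Csf3 to Csf2 in a library, on the FPKM scale, was 2.77 ± 0.46 in SPARCoe and 2.56 ± 0.71 in vector (SD, n = 6 each). The mean log2 ratio differed by 0.16 between the groups (exact permutation p = 0.517, unadjusted, 1 of 5 ratios computed after the values were seen). Il3, the neighbour of Csf2 in the mouse cytokine cluster, had 0 counts in all 12 libraries.

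Csf1r, the receptor, went the other way. It ranged from 4.11 through a median of 4.47 to 5.49 CPM in SPARCoe, against 7.53 through 8.24 to 9.83 CPM in vector. Every SPARCoe library was below every vector library. The log2 fold change was -0.86 ± 0.09 (SE, edgeR adjusted p = 1.23e-10; exact permutation p = 0.00216), a level of 0.551-fold with a 95% interval of 0.486- to 0.624-fold. In these bulk libraries, fewer cells that express a gene and less RNA per cell cannot be told apart. Csf1r is normally a receptor of the myeloid lineage, and the libraries held 1154 counts of it in SPARCoe and 2035 in vector.

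Most macrophage markers were too low for the test. Of 16 listed markers 5 were tested, of which Cd14 rose (8.83 ± 0.92 CPM in SPARCoe against 5.83 ± 0.59 CPM in vector; SD, n = 6 each; edgeR adjusted p = 1.94e-07) and 0 fell. The same rule called 14.9% of all genes higher. The summed level of the macrophage markers was 15.0 to 18.7 CPM in SPARCoe libraries and 11.2 to 14.0 CPM in vector libraries. Most of that sum was Cd14 and Cd68, so it does not describe the other markers. Cd68 stood at 6.36 CPM in SPARCoe and 5.54 CPM in vector and did not pass (edgeR adjusted p = 0.163). Tyrobp, C1qa and C1qc had 0 counts in all 12 libraries, and Adgre1 (F4/80), Itgam and C1qb had 0 in vector. Over all genes, 30227 were above 0 FPKM in SPARCoe and 27464 in vector. Ptprc (CD45) had 41 counts in SPARCoe and 24 in vector. Among 9 neutrophil and mast cell markers the only one tested, Ms4a2, fell (log2 fold change -1.22 ± 0.20, SE, edgeR adjusted p = 2.93e-06), while S100a9, Cpa3 and Fcer1a had 0 counts throughout. Of 7 lymphocyte markers only Cd79a was tested, and it did not pass (edgeR adjusted p = 0.544). Over all genes 14.9% were called higher and 14.1% lower. Of the tubule markers 5 of 5 tested fell, with a summed level of 471.4 to 509.7 CPM in SPARCoe libraries and 624.1 to 660.1 CPM in vector libraries. Of the fibroblast and mesangial markers 2 of 5 tested fell, Pdgfrb and Col1a1, with sums of 38.8 to 42.9 CPM in SPARCoe and 45.6 to 53.3 CPM in vector. Endothelial markers summed to 2.22 to 3.73 CPM in SPARCoe and 2.02 to 3.05 CPM in vector, with Tek higher and Kdr lower of 3 tested. Tek was close to the filter on low counts, with 130 counts in SPARCoe and 39 in vector. Its ranges overlapped, at 0.239 to 0.602 CPM in SPARCoe and 0.0426 to 0.486 CPM in vector, so its call carries little weight. Podocyte markers went both ways, with 2 higher and 2 lower of 6 tested, and summed to 792.6 to 821.2 CPM in SPARCoe and 873.7 to 901.2 CPM in vector. The part of these markers in the fall of Csf1r was not tested.

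Csf1r overlaps other genes, and its neighbourhood moved in both directions. It lies on chromosome 18 from 61100598 to 61132149 (plus strand, GENCODE M21). Hmgxb3, on the opposite strand, shares 873 of the 5774 exon bases of Csf1r. It was far more abundant, with 65.6 CPM in SPARCoe and 60.5 CPM in vector. Hmgxb3 rose slightly (log2 fold change 0.12 ± 0.03, SE, edgeR adjusted p = 0.00264), while Csf1r fell. It had 16576 counts in SPARCoe and 14727 in vector, beside 1154 and 2035 for Csf1r. Without a stated strand setting, reads of both genes over the shared bases cannot be told apart. What the overlap does to the Csf1r counts was not tested. Pdgfrb, the receptor of platelet-derived growth factor B, lies 15536 bases away on the same strand and fell as well, to 14.1 ± 0.60 CPM in SPARCoe against 18.7 ± 1.7 CPM in vector (SD, n = 6 each; log2 fold change -0.40, edgeR adjusted p = 2.86e-07). Its fall was smaller than that of Csf1r: the FPKM ratio of Csf1r to Pdgfrb was 0.859 ± 0.082 in SPARCoe and 1.19 ± 0.16 in vector (exact permutation p = 0.00433, unadjusted). This too was among the 5 ratios computed after the values were seen. Those ratios overlapped between the groups, with a highest value of 1.01 in SPARCoe and a lowest of 0.953 in vector. Slc26a2, on the other side, did not pass (edgeR adjusted p = 0.0703).

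The nearest tested genes around the ligands, some of them far off, changed far less than Csf2 and Csf3. Med24 lies 961 bases from Csf3 and fell by 0.11 on the log2 scale (edgeR adjusted p = 0.00209). Psmd3, on its other side, did not pass (log2 fold change 0.05, edgeR adjusted p = 0.0907). Fnip1 and P4ha2, the nearest tested genes around Csf2, lie 188531 and 115605 bases away and rose by 0.11 and 0.09. Beside Il34, Mtss1l fell by 0.33 and the splicing factor gene Sf3b3 fell by 0.066. Around Csf1, Gstm5, 135351 bases away, fell by 0.17. Ahcyl1, 44487 bases away, did not pass (log2 fold change -0.04, edgeR adjusted p = 0.148).

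**Figure D2:**
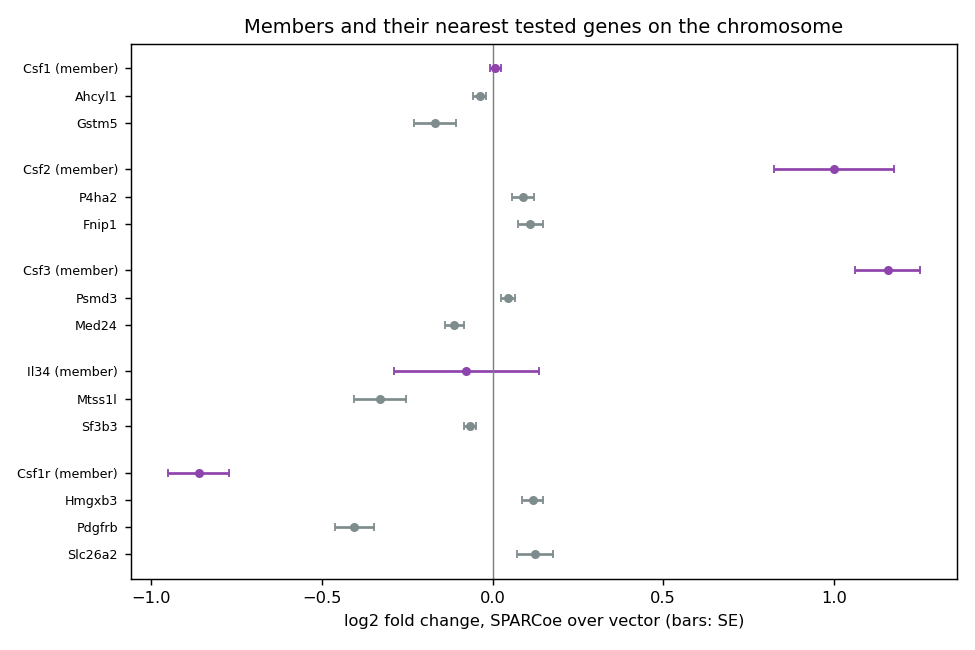
Log2 fold change of SPARCoe over vector (horizontal axis, bars are SE) for each of the 5 genes (purple) and its nearest or overlapping tested genes on the chromosome (grey). Csf2, Csf3 and Csf1r lie at 1.00, 1.16 and -0.86, while the neighbours lie between -0.40 and 0.12.

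Compared per length, Csf1 stood far above the rest in both groups, and the order of the others differed between the groups. In SPARCoe the mean FPKM was 543.3 for Csf1, 6.15 for Csf3, 2.26 for Csf2, 2.24 for Csf1r and 1.11 for Il34. In vector it was 540.0 for Csf1, 4.05 for Csf1r, 2.76 for Csf3, 1.16 for Il34 and 1.12 for Csf2. Ranges of neighbours in this order did not overlap, except for Csf2 and Csf1r in SPARCoe and for Il34 and Csf2 in vector. Csf3 was above Csf1r in all 6 SPARCoe libraries and below it in all 6 vector libraries. The FPKM ratio of Csf3 to Csf1r was 2.79 ± 0.45 in SPARCoe and 0.685 ± 0.126 in vector (SD, n = 6 each), given without a test since Csf3 and Csf1r each separated the groups already.

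That last order rests on the gene length used. The length behind the deposited FPKM equalled the mean length of the annotated GENCODE M21 transcripts, within 0.51 bases, for 97.95% of 31609 genes, short fragments included. It was 2044 bases for Csf1r, whose 6 transcripts run from 416 to 4701 bases, and 1989 for Csf1, 1001 for Il34, 1413 for Csf3 and 800 for Csf2. Per kilobase of the longest coding transcript, Csf1r stood at 0.974 in SPARCoe and 1.76 in vector, and Csf3 at 6.15 in SPARCoe and 2.76 in vector. Csf3 was then above Csf1r in all 6 libraries of both groups, and Il34 came last in both (0.618 in SPARCoe and 0.648 in vector). Csf1 remained first, at 258.8 in SPARCoe and 257.2 in vector. Fold changes between the groups do not depend on the length.

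**Figure D3:**
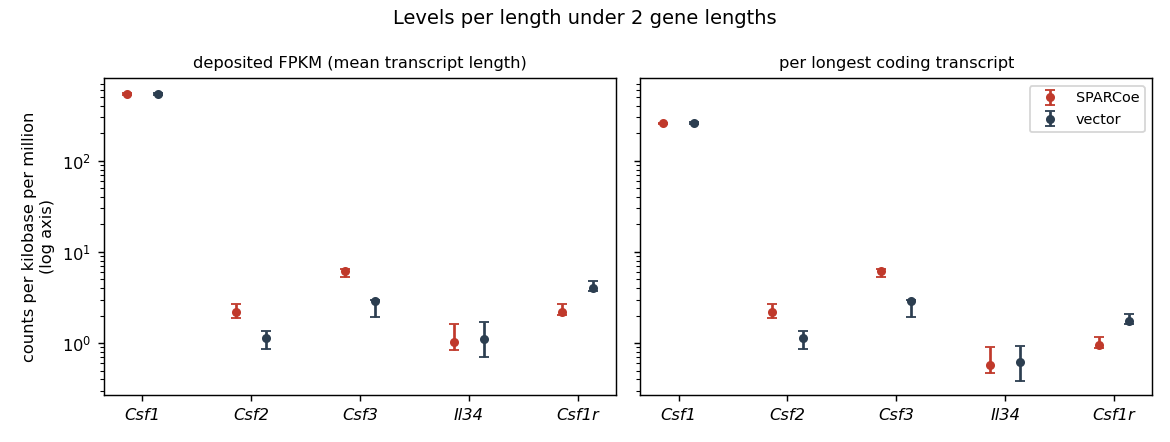
Levels scaled to gene length and library total (FPKM or its like, log axis) of the 5 genes in SPARCoe and vector, with the deposited FPKM on the left and the length of the longest coding transcript on the right; points are medians and whiskers the lowest and highest of 6 libraries. Csf1 is the highest on both sides, and Csf1r in vector lies above Csf3 on the left and below it on the right.

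The receptors through which Csf2 and Csf3 act were nearly silent in these cells. Csf3r had 0 counts in all 12 libraries, Csf2rb had 5 in SPARCoe and 0 in vector, and Csf2ra had 2 and 2. A count of 0 allows a level of up to 3 counts, which is 0.0632 to 0.0904 CPM in single libraries. Of the 6 receptors listed with their relatives, only Il5ra passed the filter (1.63 ± 0.32 CPM in SPARCoe and 1.69 ± 0.46 CPM in vector; SD, n = 6 each), and it did not pass the test (edgeR adjusted p = 0.854). Il3ra, the most abundant of the rest, had 23 counts in SPARCoe and 21 in vector. Of the other receptors of Il34, Ptprz1 had 0 counts in all 12 libraries, while the proteoglycan Sdc1 (syndecan 1) was at 203.9 ± 4.7 CPM in SPARCoe and 201.9 ± 5.0 CPM in vector (edgeR adjusted p = 0.687).

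Other growth factors of blood cells did not pass the test. Of 6 listed, 2 were tested and 0 rose or fell, where the same rule called 29.1% of all genes. Kitl (stem cell factor) was at 33.0 ± 1.4 CPM in SPARCoe and 31.5 ± 2.0 CPM in vector, and Flt3l at 1.64 ± 0.33 CPM in SPARCoe and 1.42 ± 0.11 CPM in vector (SD, n = 6 each; edgeR adjusted p = 0.290 and 0.420). Among the 4 kinases related to Csf1r, Pdgfrb fell, Pdgfra did not pass (edgeR adjusted p = 0.433), and Kit and Flt3 were too low for the test. The shedding machinery that releases membrane-bound Csf1 was well expressed. Of its 4 genes 1 rose and 0 fell, where the same rule called 14.9% of all genes higher and 14.1% lower. The riser was Rhbdf2, a partner of the protease ADAM17 (74.9 ± 2.2 CPM in SPARCoe against 61.5 ± 1.8 CPM in vector; SD, n = 6 each; edgeR adjusted p = 1.09e-10). Adam17 and Adam10 did not pass (edgeR adjusted p = 0.326 and 0.0557).

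Factors that act on the decay of AU-rich cytokine transcripts were listed together, most of them destabilisers, with Elavl1 (HuR) as a stabiliser. The list does not sort them by the element that each binds, and it is not a list of ATTTA binders. Of 9 tested, 5 rose and 0 fell, with a median log2 fold change of 0.06, against 14.9% higher and 14.1% lower over all genes. Zc3h12a, which encodes the RNase Regnase-1, rose the most, to 18.3 ± 1.0 CPM in SPARCoe against 9.45 ± 0.58 CPM in vector (SD, n = 6 each; log2 fold change 0.95, edgeR adjusted p = 3.85e-17). Zfp36 (tristetraprolin) rose to 20.6 ± 1.9 CPM in SPARCoe against 14.2 ± 1.1 CPM in vector (edgeR adjusted p = 1.08e-09). Smaller rises were seen for its relatives Zfp36l1 (log2 fold change 0.31) and Zfp36l2 (0.12) and for Khsrp (0.055). Elavl1 did not pass (edgeR adjusted p = 0.752).

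Signalling genes below the receptors moved by small amounts. Of 13 tested genes proximal to Csf1r, 3 rose and 1 fell, close to the 29.1% called over all genes: Cblb, a ubiquitin ligase, rose by 0.12, the phosphoinositide 3-kinase genes Pik3r1 and Pik3ca rose by 0.14 and 0.07, and the phosphatase gene Ptpn6 fell by 0.22 on the log2 scale. Of 12 tested genes of the JAK-STAT arm, 4 rose and 2 fell, beside the same 29.1%. Jak2 rose by 0.22, and the feedback inhibitors Cish and Socs3 rose by 0.48 and 0.27. Stat5b fell by 0.16 and Stat5a by 0.20 on the log2 scale, and Stat3 did not pass (edgeR adjusted p = 0.936). Tyrobp, an adaptor of myeloid receptors, had 0 counts, and Plcg2 had 33 counts in SPARCoe and 0 in vector.

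Of 6 tested transcription factors that drive Csf1r in myeloid cells, 4 rose and 0 fell, where the same rule called 14.9% of all genes higher and 14.1% lower. Cebpa rose to 1.64 ± 0.29 CPM in SPARCoe against 0.313 ± 0.074 CPM in vector (SD, n = 6 each; log2 fold change 2.36 ± 0.23, SE, edgeR adjusted p = 1.40e-11). Ets2 rose by 0.23 and Irf8 by 0.24 on the log2 scale. Spi1 (PU.1), the main myeloid regulator of Csf1r, was at 0.393 ± 0.129 CPM in SPARCoe and 0.366 ± 0.139 CPM in vector and did not pass (edgeR adjusted p = 0.882). Runx1 did not pass either (edgeR adjusted p = 0.372).

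**Figure D4:**
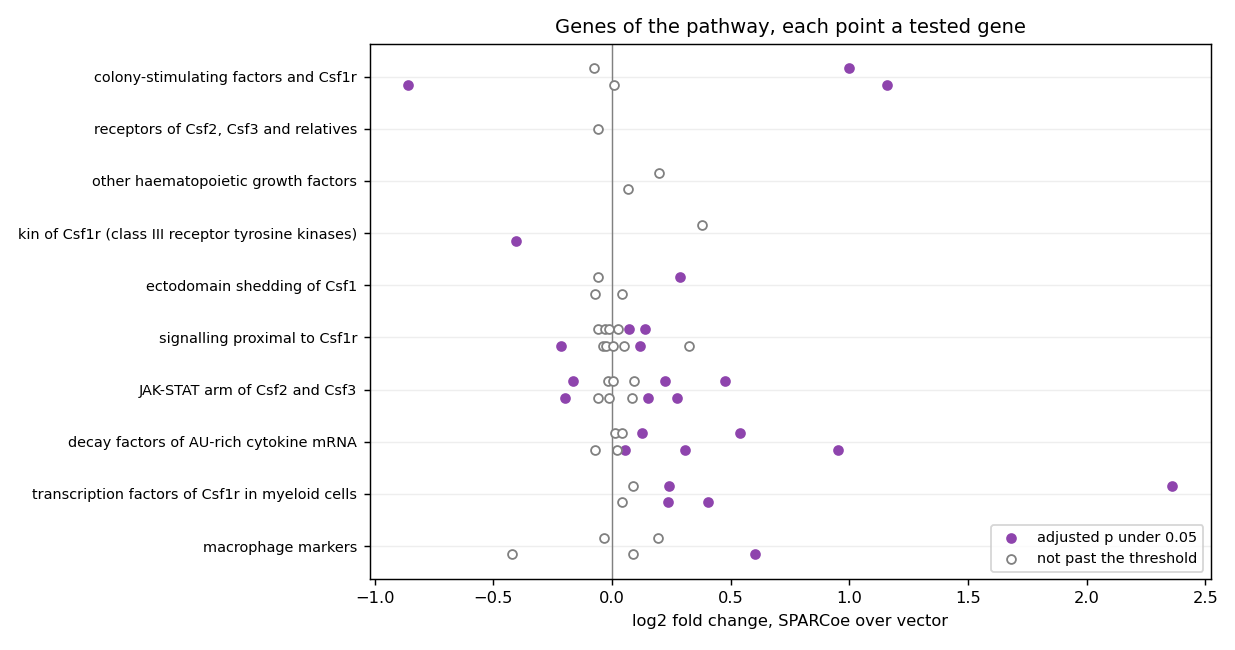
Log2 fold change of SPARCoe over vector (horizontal axis) for every tested gene of the groups named on the vertical axis (markers of cell types other than macrophages are not drawn); filled points passed an edgeR adjusted p under 0.05 and open points did not. Csf2 and Csf3 (1.00 and 1.16) lie to the right of the other genes drawn except Cebpa (2.36), and Csf1r (-0.86) lies to the left of those drawn.

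Genes with the most similar pattern were sought among protein-coding genes within 4-fold of each member's mean level, by the root-mean-square difference of gene-centred log2 CPM over the 12 libraries. This difference includes the shift between the groups, so the search favours genes with a fold change like that of the member. The log2 fold change was 1.28 for Fas, 1.05 for Klhdc1 and -0.72 for Ror1. Shared regulation was not tested. For Csf3 they were Fas, Psmb9 and Depdc7 (differences of 0.137, 0.137 and 0.144 among 3983 candidates, whose median was 0.625). For Csf2 they were Klhdc1, Acad12 and Fgfbp3 (0.179, 0.201 and 0.206 of 2357, median 0.588). For Csf1r they were Ror1, Flrt3 and Sema7a (0.129, 0.157 and 0.158 of 4034, median 0.461). For Csf1 they were Ep400, Mta2 and Brd2 (0.0162, 0.0163 and 0.0176 of 678, median 0.0502). None of these passed the test, which matching to a gene without a shift favours. Mustn1, Gpr85 and Nhs were nearest to Il34 (0.215, 0.229 and 0.263 of 2317, median 0.529).

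**Figure D5:**
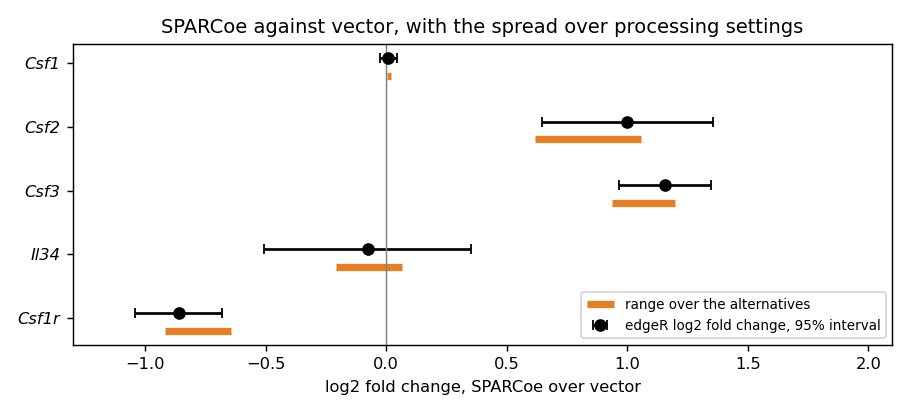
Log2 fold change of SPARCoe over vector (horizontal axis) for the 5 genes, with points and whiskers for the edgeR estimate and its 95% interval and orange bars for the range over 24 alternative settings. The bars of Csf2 (0.62 to 1.06), Csf3 (0.93 to 1.20) and Csf1r (-0.92 to -0.64) stay on their side of 0, and that of Il34 (-0.21 to 0.07) crosses it.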

How the data were processed

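Per the labels' protocols, poly(A) RNA of MPC5 cells was fragmented and sequenced 24 hours after transfection. The authors deposited read counts and FPKM values per Ensembl gene for 12 libraries. The submitters' processing notes list edgeR, featureCounts, HISAT2, Bowtie2, Picard and SAMtools without versions. The genome build, the strand setting and the handling of multi-mapped reads were not found in the labels or file headers. Counts were used as deposited. Of counts from 1 to 10, 56.36% were even, so read pairs may add 2 counts. The limit given for a count of 0 covers counting error only.

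Symbols matched 55141 of 55487 IDs, and positions are from GENCODE M21. edgeR 4.0.16 (R 4.3.3) was run with TMM factors, filterByExpr and a robust quasi-likelihood fit (glmQLFit, glmQLFTest) on all 12 libraries, with SE and 95% intervals derived from F statistics. The pipeline was tested on simulated data. Alternatives were RLE and upper-quartile factors, no filter, at least 1 CPM in at least 6 libraries, Sparc left out, DESeq2 1.42.0, limma-voom and limma trend on FPKM (limma 3.58.1; pseudocounts 1 and 0.1), a replicate block, each library left out, and, added after the data were seen, counts halved and another gene length. Same-numbered libraries did not deviate together (r from -0.0106 to 0.0147), so the numbers were not treated as pairs.

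The members and lists were chosen with earlier results of these data known. From each list up to 4 called genes with the smallest adjusted p were named, or the 2 most abundant, besides nearest chromosomal neighbours and nearest patterns. Other genes named (the podocyte, receptor and myeloid markers given by their counts, Il3, and further list members given for contrast) were chosen after their values were seen. Some listed genes are not reported here.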

Additional observations from a re-analysis of the deposited data

Results flagged for a closer look

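In 3 of the 10 sets of 6 libraries (5 genes in 2 groups), 1 library stood apart from the others by the Dixon ratio, which chance gives in about 1 of 20 sets. SPARCoe replicate 4 was low for Csf3, at 7.43 CPM. Vector replicate 1 was low for Csf3, at 2.71 CPM, where the other vector libraries lay between 4.09 and 4.23 CPM. Vector replicate 6 was high for Csf1r, at 9.83 CPM. Csf3 had a log2 fold change of 1.20 without SPARCoe replicate 4 and 1.08 without vector replicate 1, and Csf1r had -0.81 without vector replicate 6.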

How the results depend on the processing

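Csf2, Csf3 and Csf1r kept their direction and passed the threshold under all 24 alternatives, and Csf1 and Il34 passed under none (adjusted p of at least 0.466 and 0.548). Leaving out each library gave log2 fold changes of 0.0029 to 0.019 for Csf1, 0.94 to 1.06 for Csf2, 1.08 to 1.20 for Csf3, -0.21 to 0.066 for Il34 and -0.92 to -0.81 for Csf1r. Il34 changed sign without vector replicate 1 (0.012) and without vector replicate 3 (0.066), and the cause was not tested. On log2(FPKM + 1), with or without a filter, Csf2 was at 0.62. Its mean level was 1.12 FPKM in vector and 2.26 FPKM in SPARCoe, so a pseudocount of 1 shrinks its log2 fold change. With the replicate number as a block, the values were 0.0086 for Csf1, 1.00 for Csf2, 1.17 for Csf3, -0.051 for Il34 and -0.86 for Csf1r, and the number of genes called was 4663 against 4571 without the block, which changed no call among the 5 genes. No same-numbered pair correlated best with its own number. The number of genes called ran from 4276 to 4476 with a library left out and from 4137 (log2(FPKM + 1)) to 5344 (no filter) over all alternatives. Csf2 had 23 to 97 counts per library and Il34 29 to 73, the lowest depths among the 5 genes.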

Other observations

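The pentamer count was set beside the changes over all genes, as a description with no test, chosen after the values of Csf2 and Csf3 were seen. Of 12521 tested genes with an annotated 3′ untranslated region, 17.4% were higher and 17.1% lower in SPARCoe. With at least 3 pentamers in a 30-base window, as Csf3 has, it was 20.7% higher and 18.1% lower of 304 genes. With at least 4 it was 29.3% and 15.5% of 58 genes, and with at least 5, as Csf2 has, 15.4% and 11.5% of 26 genes. At least 1 and at least 2 pentamers gave 18.4% and 18.6% higher, and 17.8% and 18.3% lower. The share of higher genes thus climbed up to at least 4 pentamers. It was lower with at least 5, where 4 of the 26 genes were higher. Each group contains the next, Csf2 and Csf3 are counted among them, and the last groups are small. A trend, or the lack of one, cannot be read from them.

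Among transcripts tied to these factors that were too low for the test, some were listed at 0 counts in every vector library and held a few in SPARCoe. Over all genes, 30227 were above 0 FPKM in SPARCoe and 27464 in vector. Epo (erythropoietin) had 41 counts in SPARCoe and 0 in vector, Csf2rb2 had 10 and 0, and Il5 had 8 and 0, while Thpo had 41 and 58.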
